A study of Mus musculus with 36 samples.

Results

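Satellite cells are the resident stem cells of skeletal muscle. The comparison described here set control satellite cells taken 3 days after injury against resting control cells, which spans the whole time course of the study. Its members were the 3 libraries of control cells at 3 days post-injury (3 DPI) and the 3 libraries of quiescent control cells (QSC) that the sample titles name, 6 of the 36 libraries of the series. All 6 came from 3-month-old mice that carried Pax7-CreER and ROSA26YFP and had been given tamoxifen, so that cells in which the Pax7 promoter had driven Cre were marked with YFP. The study called these mice WT, and both groups therefore shared the Cre, the reporter and the tamoxifen. The 3 DPI cells were sorted as CD34-YFP+ from tibialis anterior, quadriceps and gastrocnemius muscles that had been injected with cardiotoxin, a toxin that kills fibres and spares satellite cells. The QSC were sorted as YFP+ from hindlimb muscle without injury. Cells sorted as YFP+ at 1 DPI (4 control libraries) and cells of Drp1 KO mice, which carried Drp1fl/fl in addition (4 libraries at 3 DPI and 3 of QSC), are cited where they bear on a control value. These mice were also 3 months old. Cells of 24-month-old mice called WT (3 libraries at 3 DPI and 3 of QSC), from a second table, are cited for the mitochondrial genome and near the end. The day, the injury, the muscles taken and the sort gate changed together, so their parts in any difference cannot be told apart. The labels did not say whether libraries of a group came from separate mice, so p-values measure the spread between libraries, which may be technical.

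As background, a quiescent satellite cell holds little RNA and protein synthesis, and Pax7 marks it. Injury starts the cycle, the cell becomes a myoblast that expresses Myod1, and myoblasts that leave the cycle switch on Myog, fuse and assemble sarcomeres. Notch and calcitonin receptor signals are known to hold the resting state. The deposited values were TPM, a length-corrected share of transcripts, which puts each library on the same total. A change is given as the 3 DPI mean minus the QSC mean of log2(TPM + 1), with its standard error (SE), and the added 1 makes changes of low genes look smaller than they were.

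The 6 libraries fell into the 2 labelled groups. Correlations of log2(TPM + 1) were 0.94 to 0.946 among the 3 DPI libraries, 0.931 to 0.936 among the QSC libraries and 0.775 to 0.79 between the groups. At 3 DPI 13200 to 13429 genes reached 1 TPM, against 13595 to 14291 in QSC. Nuclear protein-coding genes held 83.8 to 84.2% of the TPM at 3 DPI, against 75.2 to 77.3% in QSC. Long intergenic non-coding RNAs held 0.846 to 0.905% at 3 DPI and 3.89 to 4.67% in QSC. Most of that QSC share, and of the difference, was 1 gene, Malat1. It had 4120 to 4378 TPM at 3 DPI and 29937 to 36466 TPM in QSC. The test covered 18343 genes that reached 1 TPM in 3 or more libraries. limma called 7937 changed at a Benjamini-Hochberg adjusted p under 0.05, which is 43.3% of the genes tested. Of these, 4311 (23.5%) were higher at 3 DPI and 3626 (19.8%) were lower. Among the called genes the estimated change was 2-fold or more for 3610 (19.7% of genes tested) that were higher and 2930 (16%) that were lower. This is a cut on the estimate and no test against 2-fold, which is given in the last section. A list of genes is read below against these shares. In bulk samples, fewer cells of a type and less RNA per cell cannot be told apart.

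Before the gene groups, the label was set against its markers. The study called the 3 DPI cells proliferating. Cell cycle genes were high at 3 DPI, and genes of terminal muscle differentiation were high in the same libraries. Pax7, the defining transcription factor of satellite cells, stood at 6.47, 5.33 and 6.92 TPM at 3 DPI, against 7.99, 6.65 and 5.2 TPM in QSC. The groups overlapped, and the change of -0.06 (SE 0.36) did not pass the test (limma, adjusted p = 0.919). Its paralogue Pax3 was at 0.0224 to 1.61 TPM at 3 DPI and at 15.3 to 21.5 TPM in QSC, a fall of -3.63 (SE 0.43, adjusted p = 9.01e-07). Of 14 satellite cell markers, which include Pax7, 10 were called lower and 1 higher, beside 19.8% and 23.5% of all genes tested. Their median change was -1.20. They summed to 1336 to 1530 TPM at 3 DPI and 6786 to 8176 TPM in QSC, with Sdc4, given below, among them. Cd34, whose protein the 3 DPI gate selected against, had 17.8, 12.1 and 7.92 TPM at 3 DPI and 126, 114 and 162 TPM in QSC. This difference is part of how the cells were sorted and is no result. Markers of other cell types were present, at levels that differed by type and by state. The 22 macrophage and monocyte markers summed to 221, 593 and 227 TPM at 3 DPI and to 169, 124 and 88.7 TPM in QSC. Among the 3 DPI and QSC libraries, replicate 2 of 3 DPI held the highest sum. The 4 libraries of 1 DPI, cited below as a middle state, summed to 4263, 1328, 6314 and 543 TPM. Their 12 neutrophil markers summed to 3764, 1518, 5496 and 419 TPM. Between QSC and 3 DPI, 2 of the 22 macrophage and monocyte markers were called higher and 1 lower, with a median change of 1.18. For 11 of the 22 all 3 DPI libraries lay above all QSC libraries, beside 5471 of the 18343 genes tested. The pan-leukocyte gene Ptprc had 0.629 to 4.41 TPM at 3 DPI and 1.99 to 3.57 TPM in QSC. The 18 fibro-adipogenic markers went the other way, with sums of 264 to 338 TPM at 3 DPI and 1728 to 1903 TPM in QSC. Of 17 tested, 6 were called lower and 1 higher, with a median change of -0.98. Their defining gene Pdgfra was at 0 to 0.101 TPM at 3 DPI and 0 to 2.03 TPM in QSC. Another of these markers, Dpt, was high in QSC, with values given below. The endothelial gene Pecam1 had 0.0994 to 2.7 TPM at 3 DPI and 2.26 to 2.86 TPM in QSC.

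The late factor Myog was higher, and the early factors Myf5 and Myod1 were lower. Myog, the transcription factor that starts terminal differentiation (chr1:134289989-134292548, GRCm38), had 734, 823 and 982 TPM at 3 DPI, against 19.1, 40.4 and 31 TPM in QSC. Each 3 DPI library was far above each QSC library, and the change was 4.82 (SE 0.60, adjusted p = 1.89e-06). The 4 libraries of 1 DPI lay between 8.91 and 33.7 TPM, so the QSC and 1 DPI ranges of Myog overlapped and the higher level was seen at 3 DPI alone among the 3 states. Myf5, a determination factor already transcribed in quiescent cells, had 212, 235 and 252 TPM at 3 DPI and 436, 627 and 524 TPM in QSC, a fall of -1.17 (SE 0.32, adjusted p = 0.00557). Myod1, the determination factor of activated myoblasts, had 189, 200 and 191 TPM at 3 DPI and 343, 400 and 356 TPM in QSC (-0.92, SE 0.25, adjusted p = 0.00554). Neither set of 3 libraries overlapped the other for these factors. Across the 18 myogenic transcription factors, 6 rose and 7 fell, with a median change of 0.06, beside a median of 0 over all genes tested.

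**Figure D1:**
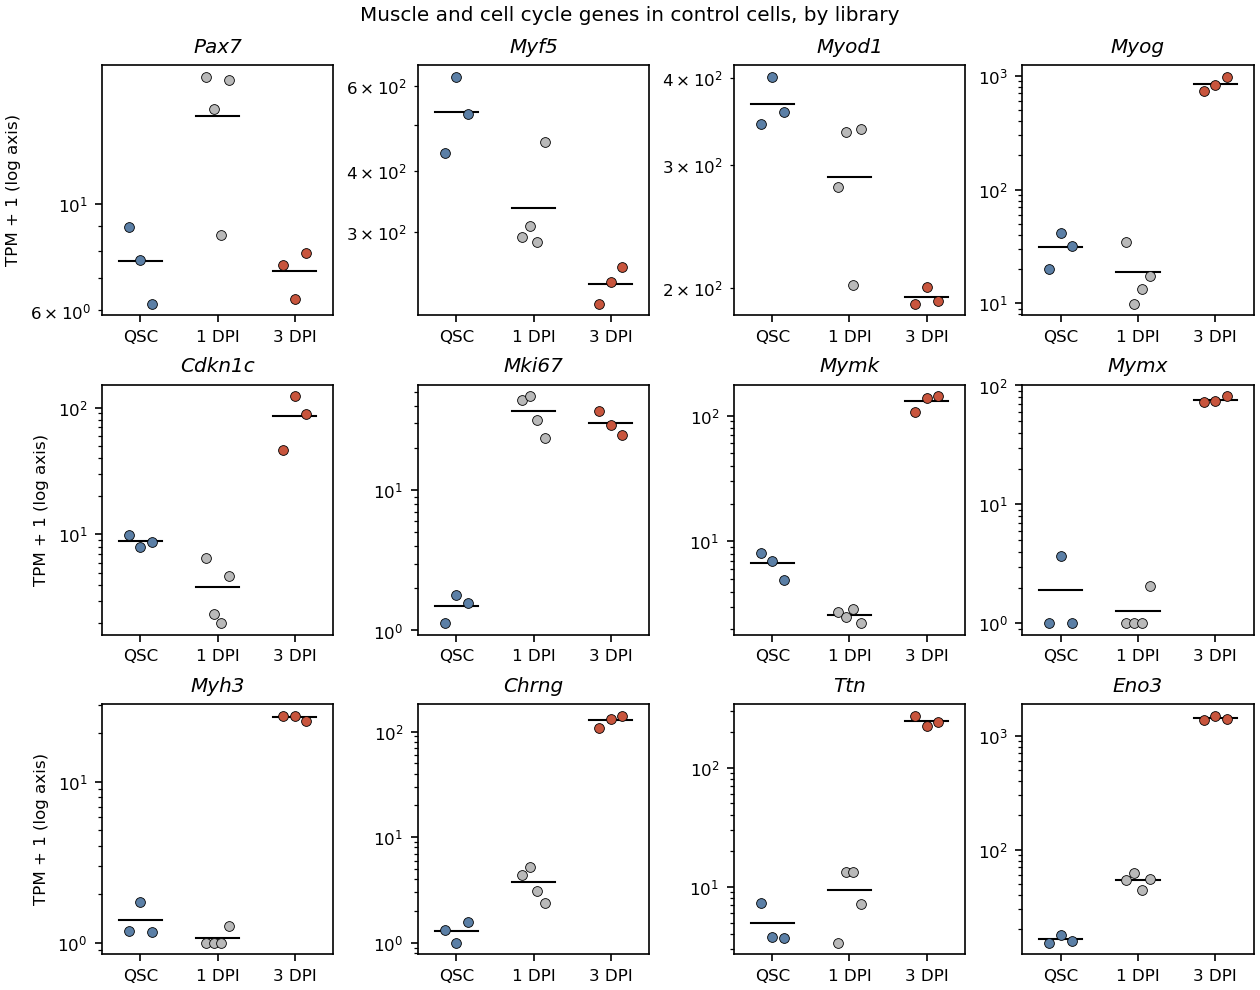
TPM + 1 on a log axis for 12 genes in each library of control cells in QSC (3), 1 DPI (4) and 3 DPI (3), with a line at the mean of each group. Myog, Mymk, Mymx, Myh3, Chrng, Ttn and Eno3 stand high at 3 DPI, Mki67 is high at both times after injury, and the 3 DPI and QSC points of Pax7 overlap.

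Fusion of myoblasts needs a pair of muscle-specific membrane proteins, and the transcripts of both rose at 3 DPI. Mymk encodes Myomaker, which acts at the onset of fusion. It had 106, 137 and 142 TPM at 3 DPI, against 7.15, 6.02 and 3.98 TPM in QSC (4.29, SE 0.54, adjusted p = 2.07e-06). Mymx encodes Myomixer, a micropeptide that completes the fusion pore. It had 71.6, 73.4 and 80.4 TPM at 3 DPI and was listed at 0 in 2 QSC libraries and at 2.7 TPM in the other (5.62, SE 0.50, adjusted p = 2.22e-08). At 1 DPI Mymk was at 1.24 to 1.88 TPM and Mymx at 0 to 1.04 TPM. Of 17 myoblast fusion genes 8 rose and 4 fell, with 2 that fell without QSC replicate 1 or QSC replicate 2 and 1 without QSC replicate 3. The adhesion gene Cdh2 (N-cadherin) was among those higher, with 53.2 to 70.7 TPM at 3 DPI and 0.912 to 2.21 TPM in QSC. Tmem182, a muscle membrane protein, had 15.5 to 20.3 TPM at 3 DPI and 0 to 1.16 TPM in QSC.

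Genes of the developing sarcomere were mostly higher. Of 30 embryonic, slow or cardiac sarcomere genes 19 rose and 3 fell, and the median change was 1.63. Ttn, the giant spring protein of the sarcomere, had 272, 223 and 241 TPM at 3 DPI, against 6.28, 2.81 and 2.74 TPM in QSC (5.71, SE 0.50, adjusted p = 1.82e-08). Tnnt2, the cardiac troponin T that embryonic skeletal muscle also makes, had 145, 117 and 163 TPM at 3 DPI and 1.26, 3.39 and 0.151 TPM in QSC (5.97, SE 0.43, adjusted p = 1.59e-09). Myh3, embryonic myosin heavy chain, had 24.8, 24.7 and 22.9 TPM at 3 DPI and 0.187, 0.787 and 0.164 TPM in QSC (4.22, SE 0.39, adjusted p = 3.76e-08). For each of these genes the lowest 3 DPI library exceeded the highest QSC library. Cardiac actin Actc1 (119 to 141 TPM at 3 DPI, 2.71 to 4.31 TPM in QSC) and slow troponin I Tnni1 (67.6 to 71.7 TPM at 3 DPI, 0.868 to 3.26 TPM in QSC) followed the same order. The same list had a median of -0.28 between QSC and 1 DPI, a comparison that shares the QSC libraries.

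Adult fast fibre genes split. Of 23 tested, 9 rose and 3 fell, with a median of 0.80. Mylpf, the fast regulatory light chain, rose to 257, 358 and 310 TPM at 3 DPI, against 23.4, 23.7 and 24.5 TPM in QSC (3.62, SE 0.46, adjusted p = 2.41e-06). Eno3, the muscle enolase, had 1376, 1498 and 1386 TPM at 3 DPI and 14.2, 16.8 and 14.9 TPM in QSC (6.45, SE 0.26, adjusted p = 1.15e-12), and no other transcript shared its sequence by the alignment rule used here. The fast troponin I gene Tnni2 rose to 96.7 to 101 TPM at 3 DPI against 9.51 to 14.2 TPM in QSC, and skeletal actin Acta1 rose to 397 to 475 TPM at 3 DPI against 72.1 to 112 TPM in QSC. The 3 members that fell were Pvalb, Mylk2 and Pygm. Pvalb, the calcium buffer of fast fibres, was at 0 to 0.575 TPM at 3 DPI and 7.69 to 23.8 TPM in QSC (-3.58, SE 0.71, adjusted p = 0.000362), and Mylk2 and Pygm fell by 2.46 and 2.07 on the log2 scale. Myh4, the adult fast IIb myosin, was listed at 0 in all 3 libraries of 3 DPI and at 0.687 to 2.4 TPM in QSC, a difference that did not pass the test (adjusted p = 0.129). Transcripts of fibres can enter a muscle cell preparation from broken fibres, and their part in the QSC levels was not tested.

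Among acetylcholine receptor subunit genes Chrng, Chrnd and Chrna1 rose and Chrnb1 fell. In the muscle of embryos and of fibres without a nerve the receptor holds alpha, beta, gamma and delta subunits, encoded by Chrna1, Chrnb1, Chrng and Chrnd. Chrng had 107, 131 and 140 TPM at 3 DPI, against 0.336, 0 and 0.566 TPM in QSC (6.63, SE 0.37, adjusted p = 5.99e-11). Chrnd had 70.4, 60.1 and 78.4 TPM at 3 DPI and 1.83, 0.0375 and 0.918 TPM in QSC (5.30, SE 0.41, adjusted p = 3.14e-09). Chrna1 had 285, 307 and 320 TPM at 3 DPI and 18, 27 and 34.2 TPM in QSC (3.52, SE 0.31, adjusted p = 1.96e-08). The beta subunit moved the opposite way from its partners. Chrnb1 stood at 134, 131 and 138 TPM at 3 DPI and 291, 333 and 368 TPM in QSC, a fall of -1.29 (SE 0.21, adjusted p = 4.82e-05). Musk, the receptor kinase that organises the synapse, also fell, to 80, 94.9 and 90.5 TPM at 3 DPI against 322, 441 and 472 TPM in QSC (-2.19, SE 0.27, adjusted p = 1.98e-06), while its activator Dok7 rose to 11.1 to 12.2 TPM at 3 DPI against 0.399 to 0.525 TPM in QSC. Of the 13 genes of this list 7 rose and 2 fell.

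The promoters of the alpha and gamma subunit genes are shown because both genes rose and because E-boxes, the sites that myogenic factors bind, are classically described in them. The windows run from 250 bases before to 50 bases after the annotated start in RefSeq, on GRCm38.p6, 5′ to 3′ on the strand of the gene. Capitals mark the E-box letters CAGCTG, which read the same on both strands. Chrng is at chr1:87205561-87205860 on the plus strand and Chrna1 at chr2:73580289-73580588 on the minus strand.
Chrng: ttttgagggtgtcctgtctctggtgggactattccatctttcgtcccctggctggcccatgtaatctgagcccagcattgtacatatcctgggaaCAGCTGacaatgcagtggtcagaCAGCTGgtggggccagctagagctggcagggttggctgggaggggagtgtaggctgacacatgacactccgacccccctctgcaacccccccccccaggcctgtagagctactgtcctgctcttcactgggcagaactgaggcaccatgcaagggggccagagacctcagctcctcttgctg
Chrna1: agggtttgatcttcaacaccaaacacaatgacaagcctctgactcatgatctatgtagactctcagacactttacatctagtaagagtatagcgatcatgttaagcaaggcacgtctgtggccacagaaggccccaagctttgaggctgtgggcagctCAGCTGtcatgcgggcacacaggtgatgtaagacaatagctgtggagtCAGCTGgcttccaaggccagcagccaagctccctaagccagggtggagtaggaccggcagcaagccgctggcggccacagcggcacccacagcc
Each window held CAGCTG 2 times. Among the promoters of the acetylcholine receptor and synapse list (9 genes matched, 12 promoters) 5 held it, which is 41.7%, beside 16.3% of all 32851 promoters in the table. The share was 61.1% of 18 promoters of adult fast fibre genes and 27.3% of 33 promoters of embryonic, slow or cardiac sarcomere genes. A match describes letters and is no evidence that a factor was bound.

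Excitation and membrane genes divided by gene. Cacng1, the gamma subunit of the skeletal muscle calcium channel, had 37.3, 50.4 and 52.6 TPM at 3 DPI, against 0.424, 0.562 and 0.252 TPM in QSC (5.07, SE 0.36, adjusted p = 9.56e-10). Casq2 (calsequestrin, a calcium store protein) rose by 3.00 on the log2 scale, and Mrln, which encodes a micropeptide that restrains the calcium pump, fell to 6.04 to 13.5 TPM at 3 DPI against 63.4 to 93.4 TPM in QSC. In the dystrophin complex and costamere list 7 of 24 rose and 5 fell, near the 23.5% and 19.8% over all genes tested. Dmd itself, dystrophin, which polarises dividing satellite cells as well as anchoring fibres, had 7.39, 7.71 and 3.41 TPM at 3 DPI, against 75.3, 76.5 and 94.5 TPM in QSC (-3.59, SE 0.65, adjusted p = 0.000138). Its homologue Utrn fell to 31.7 to 39.8 TPM at 3 DPI against 112 to 124 TPM in QSC, and the actin crosslinker Flnc fell by 3.00 on the log2 scale. Cav3, muscle caveolin, rose to 12.7 to 17.2 TPM at 3 DPI against 0.679 to 0.847 TPM in QSC.

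Genes of DNA replication and mitosis rose. All 40 DNA replication genes and all 39 mitosis genes tested were called higher, with median changes of 3.16 and 4.72. With median-of-ratios scaling 38 of the replication genes and all 39 mitosis genes passed. Ccnb2, a cyclin of mitotic entry, had 172, 183 and 187 TPM at 3 DPI, against 1.28, 1.85 and 3.04 TPM in QSC (5.93, SE 0.52, adjusted p = 1.88e-08). Its kinase Cdk1 had 272, 252 and 233 TPM at 3 DPI and 3.03, 2.06 and 0.893 TPM in QSC (6.47, SE 0.50, adjusted p = 3.79e-09). Cenpa, the histone variant that marks centromeres, had 261, 265 and 236 TPM at 3 DPI and 2.44, 3.29 and 3.98 TPM in QSC (5.93, SE 0.35, adjusted p = 1.4e-10). No 3 DPI library came near a QSC library for these genes. The survivin gene Birc5 (289 to 305 TPM at 3 DPI, 0.352 to 2.74 TPM in QSC), the ubiquitin-conjugating enzyme gene Ube2c (204 to 260 TPM at 3 DPI, 0 to 1.98 TPM in QSC) and the kinetochore gene Spc24 (170 to 201 TPM at 3 DPI, 0.685 to 1.29 TPM in QSC) were among the 10 largest gains that met the rule for named genes, given below. Ccnb1 and Hist1h2ap were as well, at 7.33 and 7.13 on the log2 scale, but 51.9% and 96.9% of their sequence matched other transcripts closely, so reads may have been split between copies. The proliferation marker Mki67 had 35.6, 28.2 and 23.8 TPM at 3 DPI and 0.125, 0.787 and 0.579 TPM in QSC (4.34, SE 0.51, adjusted p = 7.66e-07).

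The time at which these genes were high was not the same. The helicase gene Mcm2 had 58.1 to 67.5 TPM at 3 DPI and 0.399 to 1.89 TPM in QSC, with 58.7 to 87.1 TPM already at 1 DPI, so its 1 DPI and 3 DPI ranges overlapped. Cenpa had 29.5 to 80.6 TPM at 1 DPI and Ccnb2 had 20.6 to 57.4 TPM, both below every 3 DPI library. Both lists had a positive median from QSC to 1 DPI, of 3.50 for replication and 4.17 for mitosis, in a comparison that shares the QSC libraries. The 1 DPI libraries were sorted without the CD34 gate.

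The promoters of Ccnb2, Cdk1 and Cenpa are shown because the 3 genes rose together and because the CCAAT box and the cell cycle homology element TTTGAA are the textbook pair of elements in genes of mitosis. The windows have the same length and source as above, with Ccnb2 at chr9:70421505-70421804 on the minus strand, Cdk1 at chr10:69352863-69353162 on the minus strand and Cenpa at chr5:30666636-30666935 on the plus strand. Capitals mark CCAAT and TTTGAA on either strand, so that ATTGG is CCAAT read on the opposite strand. A CCAAT directly before a TTTGAA could share 1 T with it.
Ccnb2: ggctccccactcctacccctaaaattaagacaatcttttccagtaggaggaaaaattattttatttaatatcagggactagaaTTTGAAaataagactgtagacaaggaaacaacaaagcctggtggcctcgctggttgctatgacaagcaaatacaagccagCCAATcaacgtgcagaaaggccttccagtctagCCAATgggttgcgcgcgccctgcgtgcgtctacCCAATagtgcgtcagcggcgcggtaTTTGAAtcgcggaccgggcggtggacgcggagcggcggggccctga
Cdk1: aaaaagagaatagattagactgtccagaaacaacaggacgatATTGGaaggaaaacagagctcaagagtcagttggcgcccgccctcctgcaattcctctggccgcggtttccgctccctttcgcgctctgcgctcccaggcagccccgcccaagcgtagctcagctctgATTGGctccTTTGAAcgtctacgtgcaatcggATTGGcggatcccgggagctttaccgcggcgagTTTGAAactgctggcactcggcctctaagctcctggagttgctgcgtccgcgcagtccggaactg
Cenpa: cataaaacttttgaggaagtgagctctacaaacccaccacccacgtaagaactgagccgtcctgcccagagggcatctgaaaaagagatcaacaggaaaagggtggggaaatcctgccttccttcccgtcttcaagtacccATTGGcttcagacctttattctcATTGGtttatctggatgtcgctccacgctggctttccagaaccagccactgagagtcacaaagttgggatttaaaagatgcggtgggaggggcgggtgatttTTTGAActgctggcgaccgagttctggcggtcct
Ccnb2 and Cdk1 each held 3 CCAAT and 2 TTTGAA, and Cenpa held 2 and 1. Of 35 promoters of the mitosis list (32 genes matched) 28 held CCAAT, 27 held TTTGAA and 24 (68.6%) held both, beside 6.95% of all promoters that held both. Of 38 promoters of the DNA replication list 4 (10.5%) held both, and 65.8% held CCAAT, beside 37.4% of all promoters. These are descriptions of letters in a fixed window.

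Nucleotide synthesis genes were mostly higher. Of 29 nucleotide and one-carbon synthesis genes 22 rose and 2 fell. Rrm2, the regulatory subunit of ribonucleotide reductase, had 886, 800 and 704 TPM at 3 DPI, against 18.3, 13.6 and 20.1 TPM in QSC (5.45, SE 0.27, adjusted p = 1.64e-11). The thymidylate synthase gene Tyms had 199 to 249 TPM at 3 DPI and 5.76 to 6.93 TPM in QSC. Mat2a, which makes the methyl donor S-adenosylmethionine, fell to 150, 123 and 113 TPM at 3 DPI, against 1107, 1184 and 1171 TPM in QSC (-3.16, SE 0.12, adjusted p = 8.58e-13), though 38.7% of its sequence matched other transcripts closely. Of 26 genes of the G1 phase 17 rose and 3 fell. Cdk4, the kinase of the G1 to S step, had 743 to 849 TPM at 3 DPI and 90 to 107 TPM in QSC, and Ccnd1, its cyclin, had 185 to 262 TPM at 3 DPI and 44.8 to 69.3 TPM in QSC.

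Inhibitors of the cycle did not move as a block. Cdkn1c (p57), which is linked to cycle exit in differentiating myoblasts, had 45, 122 and 87.8 TPM at 3 DPI, against 8.98, 6.92 and 7.76 TPM in QSC (3.17, SE 0.63, adjusted p = 0.000374). Cdkn2a, the Ink4a/Arf gene, had 11.2, 9.53 and 17.9 TPM at 3 DPI and was at 0, 0 and 0.39 TPM in QSC (3.59, SE 0.36, adjusted p = 1e-07). Cdkn1a (p21), which is known to rise with both cycle arrest and muscle differentiation, was high in both states, with 544, 664 and 696 TPM at 3 DPI and 889, 797 and 936 TPM in QSC, and its change of -0.47 (SE 0.23) did not pass the test (adjusted p = 0.11). It was at 196 to 289 TPM at 1 DPI, below all libraries of both other states. Myc, a driver of growth and cell cycle entry, was lower, with 79.5, 72.4 and 74.9 TPM at 3 DPI and 702, 916 and 798 TPM in QSC (-3.39, SE 0.18, adjusted p = 4.1e-11).

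**Figure D2:**
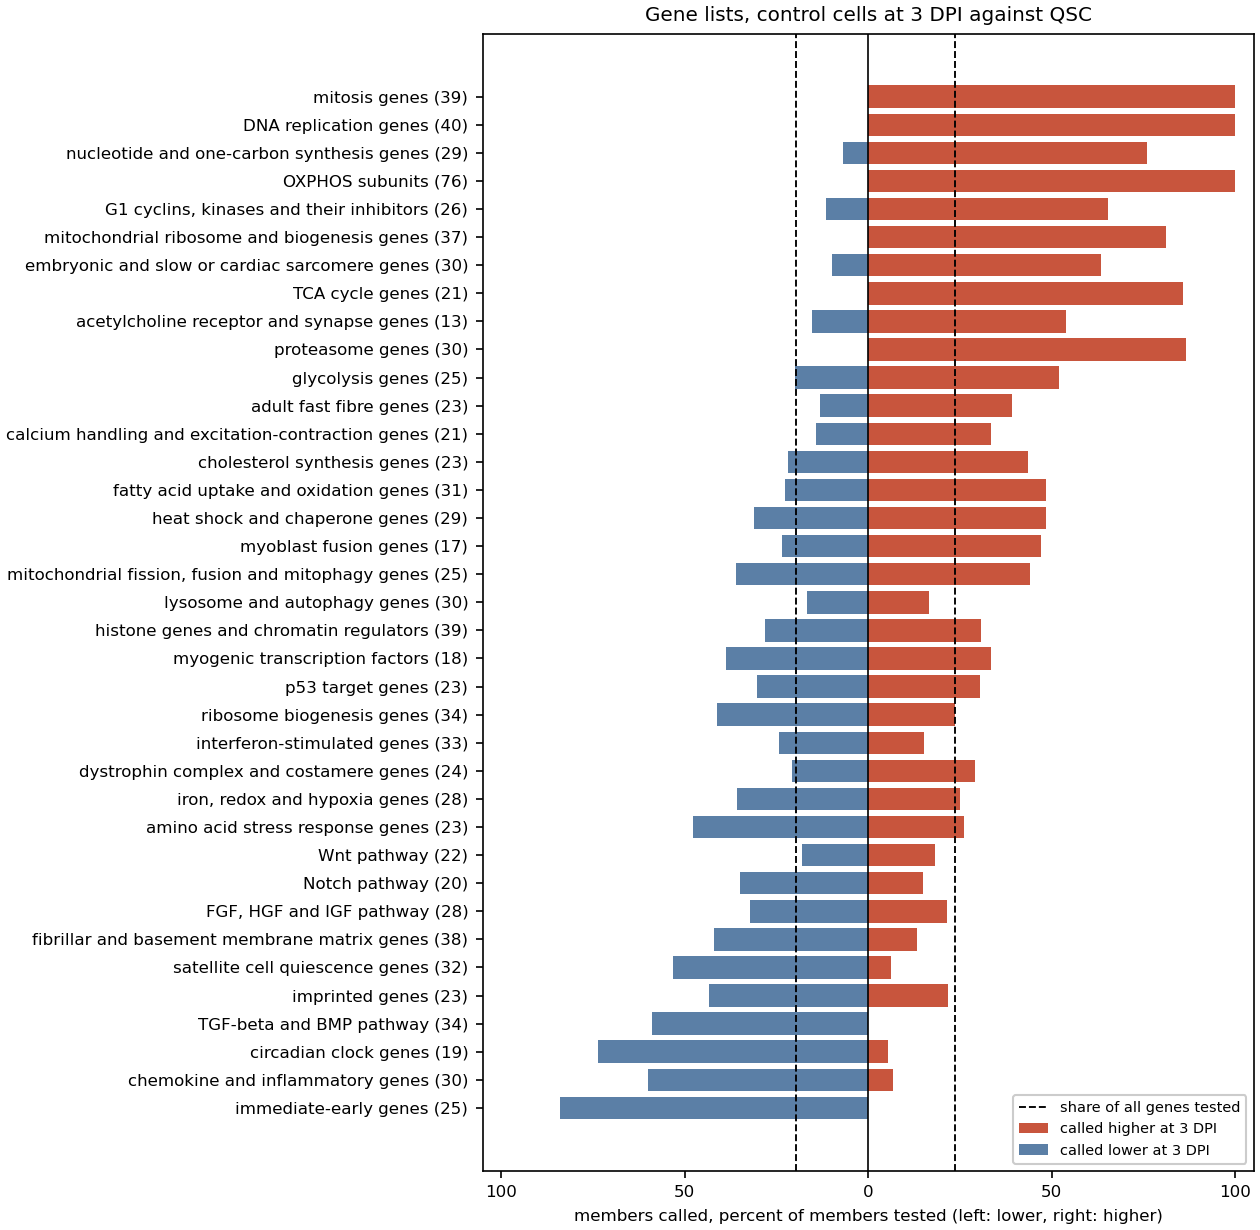
Share of the tested members of each gene list that were called higher (right) or lower (left) at 3 DPI against QSC, in percent, with the number of members tested in brackets and dashed lines at the shares over all genes tested (23.5% higher, 19.8% lower). Mitosis, DNA replication and OXPHOS genes reach 100% higher, and immediate-early genes reach furthest to the lower side.

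Nuclear genes of the respiratory chain rose. OXPHOS, or oxidative phosphorylation, is carried out by 4 electron-transfer complexes and the ATP synthase in the inner mitochondrial membrane. All 76 subunit genes tested were called higher, with a median of 1.94, made up of 36 of complex I, 4 of complex II, 10 of complex III with cytochrome c, 12 of complex IV and 14 of ATP synthase. The median was 2.06 in complex I, 2.56 in complex II, 2.23 in complex III with cytochrome c and 1.56 in complex IV, and ATP synthase genes spanned 0.79 to 2.82. Ndufa8, a complex I subunit, had 290, 300 and 287 TPM at 3 DPI, against 38.2, 42.8 and 39.9 TPM in QSC (2.83, SE 0.14, adjusted p = 1.4e-11). Sdhd, a membrane anchor of complex II, had 700, 669 and 706 TPM at 3 DPI and 77.3, 87.1 and 69.7 TPM in QSC (3.14, SE 0.20, adjusted p = 2.63e-10). Neither Ndufa8 nor Sdhd shared sequence with other transcripts by the alignment rule. Some other subunit genes did, among them Atp5o (92%), Atp5l (86.8%), Ndufs3 (75.7%) and Atp5h (71.3%), so reads may have been split between copies. The smallest changes were still positive, at 0.52 in complex I and 0.78 in complex IV. With median-of-ratios scaling 35 of the 36 complex I genes and all of the other subunits passed.

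Messenger RNAs of the mitochondrial genome were not called higher. None of the 13 was called higher, 6 were called lower, and the median was -0.82. mt-Nd1, a core subunit of complex I, had 2015, 2108 and 1985 TPM at 3 DPI, against 3076, 3387 and 4604 TPM in QSC (-0.84, SE 0.25, adjusted p = 0.0115). mt-Co1, the catalytic subunit of complex IV, had 2678, 2786 and 2767 TPM at 3 DPI and 3179, 3330 and 4071 TPM in QSC (-0.35, SE 0.27), which did not pass (adjusted p = 0.315). All transcripts of the mitochondrial genome together took 6.77 to 7.39% of the TPM at 3 DPI and 8.55 to 11.4% in QSC, the highest share being in QSC replicate 3. Without that library 2 of the 13 were called lower, and with median-of-ratios scaling 9 were. These 13 were grouped from the annotation after their values were seen. In KO cells the mitochondrial share was 6.41 to 6.83% at 3 DPI and 8.93 to 11.4% in QSC. The old WT libraries, normalised separately, did not repeat the fall. Their share was 8.93 to 11.4% at 3 DPI and 9.13 to 10.2% in QSC. There mt-Nd1 was called higher (0.42, limma, adjusted p = 0.00283), and no other of these messenger RNAs passed.

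**Figure D3:**
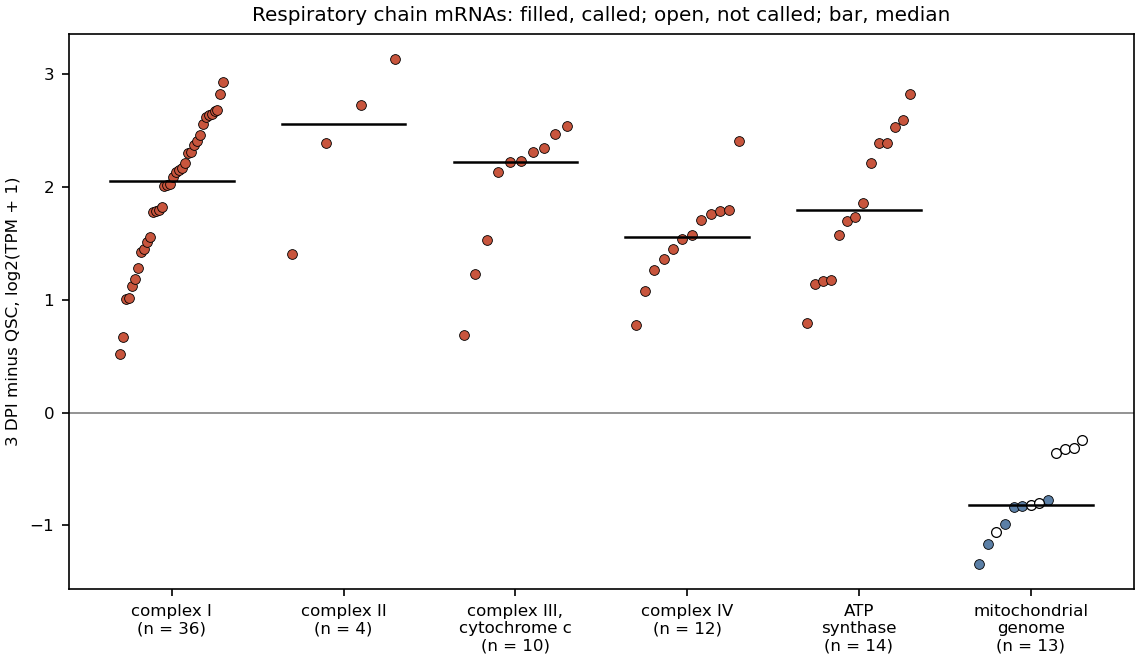
Change from QSC to 3 DPI on the log2(TPM + 1) scale for each subunit gene of the respiratory chain, by complex, and for the 13 messenger RNAs of the mitochondrial genome, with a bar at each median. Filled points passed the test and open points did not. All nuclear subunits lie above 0 and all mitochondrial messenger RNAs lie below it.

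Other mitochondrial lists were mostly higher. Of 21 genes of the tricarboxylic acid cycle 18 rose and none fell. Idh2, mitochondrial isocitrate dehydrogenase, had 336 to 342 TPM at 3 DPI and 31.3 to 57.7 TPM in QSC, and the citrate synthase gene Cs had 195 to 200 TPM at 3 DPI and 45.9 to 57 TPM in QSC. Of 37 mitochondrial ribosome and biogenesis genes 30 rose and none fell. Mrpl18, a protein of the large mitochondrial ribosome subunit, had 224 to 252 TPM at 3 DPI and 10.6 to 19.4 TPM in QSC (3.90, SE 0.23, adjusted p = 1.22e-10).

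Genes of mitochondrial shape and removal, the subject of the knockout in this series, went both ways. Of 25 tested, 11 rose and 9 fell. Dnm1l encodes Drp1, the dynamin that cuts mitochondria (chr16:16312230-16358959, GRCm38). It had 69.8, 61.5 and 64.9 TPM at 3 DPI, against 38.2, 39.5 and 30.9 TPM in QSC (0.84, SE 0.19, adjusted p = 0.00128). The genes of its membrane receptors Mff and Fis1 rose too, Mff to 132 to 151 TPM at 3 DPI against 38.2 to 54.4 TPM in QSC, and Fis1 to 140 to 158 TPM at 3 DPI against 58.3 to 62.5 TPM in QSC. The fusion dynamin of the inner membrane, Opa1, also rose, to 37.4, 42.1 and 39.8 TPM at 3 DPI against 4.68, 8.13 and 8.69 TPM in QSC (2.36, SE 0.24, adjusted p = 1.75e-07), while the outer membrane fusion gene Mfn1 spread over 8.91 to 29.5 TPM at 3 DPI and 12.3 to 31.6 TPM in QSC and did not pass (adjusted p = 0.612). Mitophagy and autophagy genes also differed among themselves. Bnip3, a mitophagy receptor, rose by 3.51 on the log2 scale, though 94.2% of its sequence matched other transcripts closely. Of the 30 genes of the lysosome and autophagy list 5 rose and 5 fell, with 3 that fell without 3 DPI replicate 2 or QSC replicate 1. Both counts lay under the 23.5% and 19.8% over all genes tested. Wipi1, an early autophagosome protein, rose to 36.6 to 41.8 TPM at 3 DPI against 1.95 to 5.65 TPM in QSC. Sqstm1 (p62), which tethers cargo to autophagosomes, had 245, 268 and 290 TPM at 3 DPI and 3056, 2390 and 2417 TPM in QSC (-3.28, SE 0.19, adjusted p = 9.05e-11), and Gabarap, a protein of the autophagosome membrane, fell by 2.24 on the log2 scale.

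Glycolysis moved unevenly. Of 25 genes 13 rose and 5 fell, with a median of 1.01. The hexokinase gene Hk2 fell to 19 to 29 TPM at 3 DPI against 56.1 to 68 TPM in QSC. Among the phosphofructokinase genes, Pfkp fell to 81.5 to 101 TPM at 3 DPI against 220 to 269 TPM in QSC, and Pfkl rose to 48.4 to 59.8 TPM at 3 DPI against 20 to 23.2 TPM in QSC. The third, Pfkm, was called higher (1.16, adjusted p = 0.0322), a call lost in 9 of 16 alternatives. The enolase Eno1 rose by 3.55 on the log2 scale, with 85.6% of its sequence matching other transcripts closely. In fatty acid uptake and oxidation 15 of 31 rose and 7 fell. Fabp5, a fatty acid binding protein, had 90, 88.7 and 82.6 TPM at 3 DPI and 1.36, 0.325 and 1.32 TPM in QSC (5.51, SE 0.38, adjusted p = 6.79e-10), and Cpt2, the inner membrane carnitine transferase, had 28.1 to 34 TPM at 3 DPI and 1.05 to 2.49 TPM in QSC. Of the Fabp5 sequence 41.3% matched other transcripts closely. In cholesterol synthesis 10 of 23 rose and 5 fell, with 2 that fell without 3 DPI replicate 3 and 3 without QSC replicate 2.

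Proteasome genes rose in 26 of 30 cases and none fell, with Psmd14, the deubiquitinase of the proteasome lid, at 257 to 269 TPM at 3 DPI and 53.3 to 73.9 TPM in QSC. Chaperones split, with 14 of 29 higher and 9 lower. Hspd1, the mitochondrial chaperonin, rose to 1057 to 1164 TPM at 3 DPI against 319 to 435 TPM in QSC, though 71.1% of its sequence matched other transcripts closely. The small heat shock gene Hspb8, whose protein binds that of Bag3, rose to 49.8 to 61.9 TPM at 3 DPI against 12.3 to 14.5 TPM in QSC, and Hspb2 rose by 1.65 on the log2 scale. The co-chaperone gene Bag3 had 27.7, 39.9 and 34 TPM at 3 DPI and 419, 299 and 461 TPM in QSC (-3.49, SE 0.22, adjusted p = 2.28e-10), and the small heat shock gene Cryab fell by 2.77 on the log2 scale. Hspa5, the chaperone BiP of the endoplasmic reticulum, fell to 1134 to 1226 TPM at 3 DPI against 3899 to 4488 TPM in QSC.

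Nucleolar and amino acid genes were mixed. Of 34 ribosome biogenesis genes 8 rose and 14 fell. The box C/D proteins Nop58 and Nop56 fell by 1.92 and 1.60 on the log2 scale, and the box H/ACA protein Dkc1 rose by 1.52. Of the Nop56 sequence 39.2% matched other transcripts closely. In the amino acid stress list 6 of 23 rose and 11 fell. Asns, asparagine synthetase, had 125, 119 and 120 TPM at 3 DPI, against 0.772, 1.09 and 1.18 TPM in QSC (5.93, SE 0.33, adjusted p = 6.24e-11). Atf4, the factor that is known to activate Asns, moved the opposite way, to 152, 144 and 143 TPM at 3 DPI against 325, 289 and 299 TPM in QSC (-1.05, SE 0.14, adjusted p = 3.74e-06). Its protein is controlled mostly through translation, which TPM does not measure.

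The largest loss of all genes was in a marker of the resting state. Chrdl2 encodes a secreted chordin-like protein that binds BMPs (chr7:100006172-100034728, GRCm38). It had 1.9, 0 and 0.331 TPM at 3 DPI, against 902, 945 and 863 TPM in QSC (-9.17, SE 0.35, adjusted p = 6.45e-13), and 42.8 to 74.1 TPM at 1 DPI, between the other states. Of 32 satellite cell quiescence genes 17 fell and 2 rose, beside 19.8% and 23.5% of all genes. Calcr, the calcitonin receptor that holds cells in the niche, had 2.68, 1.94 and 2.18 TPM at 3 DPI and 53.2, 45.9 and 82.5 TPM in QSC (-4.20, SE 0.46, adjusted p = 4.02e-07). Sdc4, the heparan sulphate proteoglycan syndecan 4, had 288, 295 and 333 TPM at 3 DPI and 3741, 4534 and 3854 TPM in QSC (-3.72, SE 0.19, adjusted p = 1.64e-11). The 2 members that rose were Cdh15 (M-cadherin), at 54.4 to 85.6 TPM at 3 DPI and 13.8 to 17.6 TPM in QSC, and Met, the receptor of hepatocyte growth factor, at 37.8 to 43.8 TPM at 3 DPI and 20.3 to 23.8 TPM in QSC. Vcam1, an adhesion protein used to sort quiescent cells, fell to 206 to 253 TPM at 3 DPI against 726 to 1115 TPM in QSC. Chodl, a membrane lectin named here after its values were seen, had 14.3 to 21.7 TPM at 3 DPI and 631 to 1052 TPM in QSC.

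**Figure D4:**
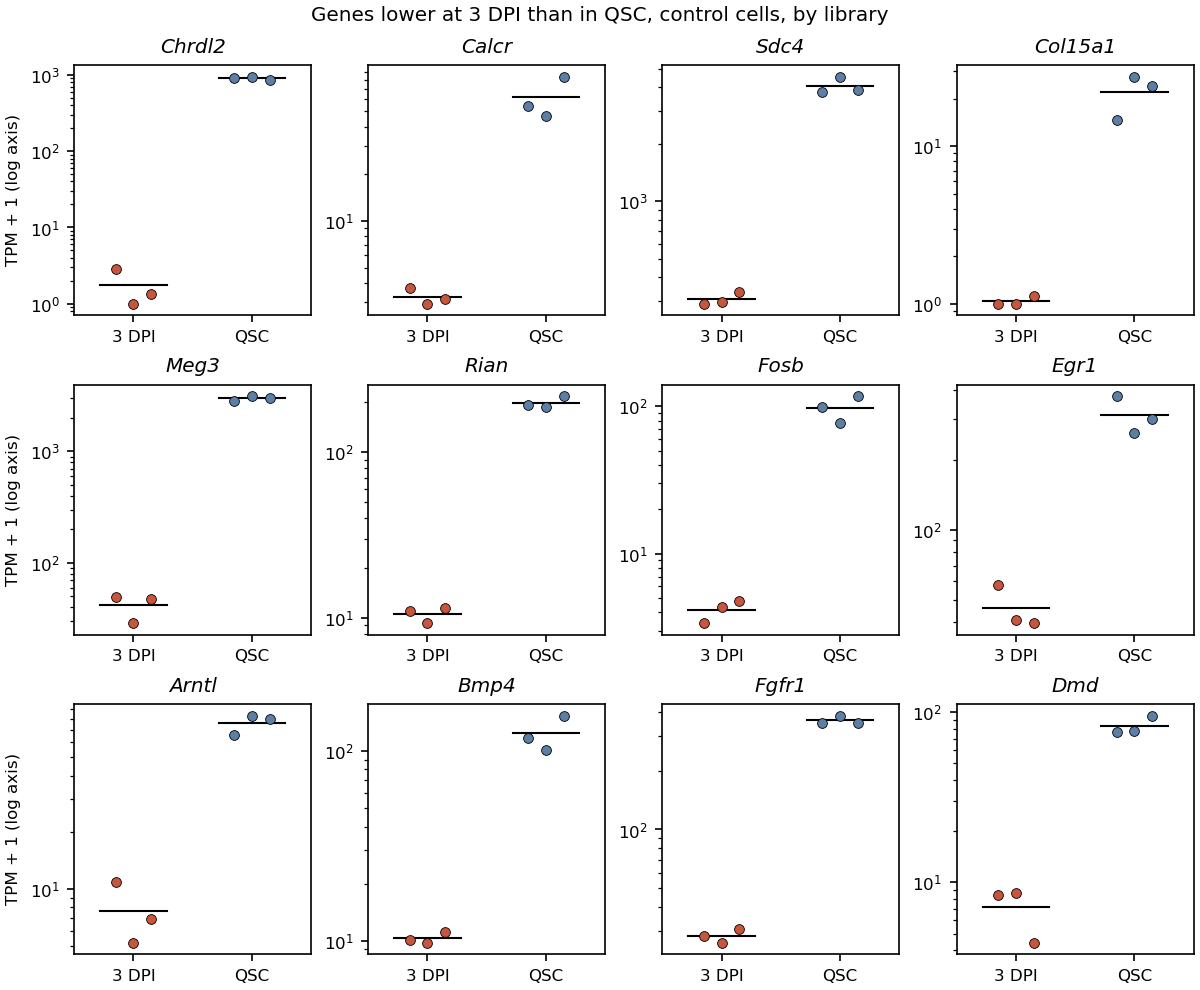
TPM + 1 on a log axis for 12 genes in each of the 3 libraries of 3 DPI (left in each panel) and the 3 libraries of QSC (right), control cells, with a line at each mean. In every panel all 3 DPI libraries lie below all QSC libraries.

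Of the signalling lists, TGF-beta and BMP genes were mostly lower and the others were mixed. Of 34 TGF-beta and BMP pathway genes 20 fell and none rose, with a median of -1.02, and 1 rose without 3 DPI replicate 3. Bmp4, a ligand, had 9.04, 8.76 and 10.2 TPM at 3 DPI, against 116, 100 and 153 TPM in QSC (-3.57, SE 0.39, adjusted p = 3.76e-07). The co-receptor Tgfbr3 had 8.83 to 12.3 TPM at 3 DPI and 176 to 233 TPM in QSC, and the receptor Tgfbr1 had 8.37 to 9.27 TPM at 3 DPI and 39.8 to 54.5 TPM in QSC. In the FGF, HGF and IGF list 9 of 28 fell and 6 rose. Fgfr1, a receptor that drives myoblast division, had 27.3, 25.2 and 29.8 TPM at 3 DPI and 352, 382 and 350 TPM in QSC (-3.67, SE 0.19, adjusted p = 2.88e-11). Of the IGF binding protein genes listed, Igfbp2, Igfbp3 and Igfbp5 rose and Igfbp4, Igfbp6 and Igfbp7 did not pass. Igfbp2 rose to 60.7, 51.5 and 40.1 TPM at 3 DPI against 0.112, 0.0874 and 0.164 TPM in QSC (5.51, SE 0.44, adjusted p = 6.07e-09), and Igfbp3 to 27.3 to 35.3 TPM at 3 DPI against 0.799 to 5.86 TPM in QSC. Of 20 Notch pathway genes 7 fell and 3 rose. The Notch target Heyl fell to 20.7 to 30.6 TPM at 3 DPI against 74.7 to 98.3 TPM in QSC, the inhibitor Numb fell by 1.77 on the log2 scale, and the ligand Dll1 rose to 15.8 to 24.6 TPM at 3 DPI against 4.02 to 8.49 TPM in QSC. In the Wnt list 4 of 22 rose and 4 fell, under the 23.5% and 19.8% over all genes tested. These counts depended on single libraries. Higher calls became 1 without 3 DPI replicate 3 or QSC replicate 1 and 2 without QSC replicate 2, and lower calls became 2 without 3 DPI replicate 1 or QSC replicate 1.

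Of 23 imprinted genes 10 fell and 5 rose, with 3 that rose without QSC replicate 2. Meg3, Rian and Mirg are non-coding RNAs made from the maternal copy of the Dlk1-Dio3 region of chromosome 12. Meg3 had 48, 27.6 and 46.4 TPM at 3 DPI, against 2832, 3138 and 3047 TPM in QSC (-6.21, SE 0.41, adjusted p = 4.76e-10). Rian had 10, 8.26 and 10.4 TPM at 3 DPI and 191, 185 and 217 TPM in QSC (-4.24, SE 0.19, adjusted p = 6.43e-12), and Mirg fell by 5.38 on the log2 scale. Both Meg3 and Rian took values between the other states at 1 DPI, of 311 to 471 TPM and 46.8 to 59.5 TPM. H19, a non-coding RNA of the imprinted H19-Igf2 locus, rose to 75.1, 49.8 and 81.2 TPM at 3 DPI against 4.1, 4.87 and 2.09 TPM in QSC (3.92, SE 0.31, adjusted p = 4.02e-09). Igf2, a growth factor gene of the same locus, had 22.6, 13.5 and 25 TPM at 3 DPI and 46.2, 34.7 and 43.8 TPM in QSC (-1.03, SE 0.34, adjusted p = 0.0185), and lost its call without 3 DPI replicate 2, QSC replicate 1 or QSC replicate 3. Of the Igf2 sequence 76.2% matched another transcript closely. Mest, a hydrolase gene, rose to 497 to 667 TPM at 3 DPI against 22.6 to 66.4 TPM in QSC, with 34.2% of its sequence matching another transcript. Malat1, an abundant nuclear RNA that is not imprinted and was named after its values were seen, had 4120 to 4378 TPM at 3 DPI, 13637 to 14809 TPM at 1 DPI and 29937 to 36466 TPM in QSC. By class, 158 of 688 long intergenic non-coding RNAs fell and 74 rose, and 26 of 186 small nucleolar RNAs fell and 2 rose. The counts that fell lay near or below the 19.8% over all genes tested. The counts that rose lay under the 23.5% over all genes tested.

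Immediate-early genes, which are induced within minutes by growth factors, stress or tissue handling, were lower at 3 DPI. Of 25 tested, 21 fell and none rose, with a median of -2.13, and 1 rose without QSC replicate 1. Fosb had 2.37, 3.33 and 3.75 TPM at 3 DPI, against 97.5, 75.7 and 116 TPM in QSC (-4.55, SE 0.22, adjusted p = 1.45e-11). Egr1 had 57.1, 39.9 and 38.6 TPM at 3 DPI and 374, 260 and 299 TPM in QSC (-2.76, SE 0.26, adjusted p = 4.41e-08), and Fos had 127 to 149 TPM at 3 DPI and 387 to 882 TPM in QSC. Jun, the usual partner of Fos, did not pass, at 136 to 141 TPM at 3 DPI and 63.4 to 127 TPM in QSC (0.46, adjusted p = 0.133). Both groups went through warm enzymatic dissociation before sorting, and the part of that step in these levels was not tested.

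Chemokine and inflammatory genes were mostly lower. Of 30 chemokine and inflammatory genes 18 fell and 2 rose. Nfkb1, the p50 subunit of NF-kB, had 39.5, 34 and 44.2 TPM at 3 DPI, against 757, 589 and 458 TPM in QSC (-3.88, SE 0.17, adjusted p = 4.57e-12). Cxcl1, a chemokine for neutrophils, had 114, 99.1 and 209 TPM at 3 DPI and 1963, 1810 and 754 TPM in QSC (-3.37, SE 0.33, adjusted p = 8.78e-08). Il33, an alarmin cytokine, was one of the 2 that rose, to 70.1, 43.2 and 70.4 TPM at 3 DPI against 3.48, 1.55 and 1.26 TPM in QSC. The 12 neutrophil markers summed to 14 to 59.8 TPM at 3 DPI and 9.48 to 25.3 TPM in QSC. The metallothioneins Mt1 and Mt2, which bind zinc and copper, fell by 3.11 and 3.26 on the log2 scale. Of the Mt2 sequence 41.5% matched another transcript closely. Of 33 interferon-stimulated genes 8 fell and 5 rose, near the 19.8% and under the 23.5% over all genes tested. Only 1 rose without 3 DPI replicate 1, 2 without QSC replicate 1 or QSC replicate 2 and 3 without QSC replicate 3. Among the 3 DPI and QSC libraries, the summed macrophage markers given above were highest in replicate 2 of 3 DPI.

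Clock genes were lower at 3 DPI in 14 of 19 cases and higher in 1, Per3, whose call (adjusted p = 0.0498) was lost when any 1 library was left out. Arntl (Bmal1), the activator of the clock, had 9.84, 4.19 and 5.96 TPM at 3 DPI, against 64.7, 82.2 and 78.4 TPM in QSC (-3.37, SE 0.33, adjusted p = 9.21e-08). Its partner Clock had 13.9 to 16.3 TPM at 3 DPI and 54.8 to 66.5 TPM in QSC. The repressors Nr1d1 and Cry2, which normally peak at another phase than Arntl, fell too, by 2.85 and 3.40 on the log2 scale, and so did the nuclear receptor Rora, by 3.48. The labels gave no hour of collection, so the part of time of day was not tested.

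Matrix genes were more often lower than higher. Of 38 tested, 16 fell and 5 rose, with 3 that rose without QSC replicate 1. Col15a1, a basement membrane collagen, was at 0, 0 and 0.122 TPM at 3 DPI and 13.7, 26.6 and 23.2 TPM in QSC (-4.37, SE 0.35, adjusted p = 6.71e-09). Col4a1 had 1.94 to 6.76 TPM at 3 DPI and 45.1 to 79.9 TPM in QSC, and the laminin gene Lama2, whose loss causes a congenital muscular dystrophy, had 17.3 to 27 TPM at 3 DPI and 91.9 to 117 TPM in QSC. Lamb1 rose to 22.9 to 25.4 TPM at 3 DPI against 3.42 to 6.66 TPM in QSC. The fibrillar collagen Col3a1 fell by 1.62 on the log2 scale and Col1a2 rose to 59.6 to 78.1 TPM at 3 DPI against 2.66 to 4.66 TPM in QSC. Dpt, the matrix protein dermatopontin and a marker of fibro-adipogenic cells, was among the 10 largest losses by the rule for named genes, at 3.26, 7.18 and 9.65 TPM at 3 DPI and 569, 776 and 838 TPM in QSC. The summed fibro-adipogenic markers, which include Dpt, and the calls of that list are given above, and their part in these matrix levels was not tested.

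The remaining genes of largest change had varied functions. Spp1, the secreted protein osteopontin (chr5:104435118-104441050, GRCm38), had 2066, 1912 and 1810 TPM at 3 DPI, against 6.83, 0.774 and 0.969 TPM in QSC (9.32, SE 0.56, adjusted p = 1.41e-10). It was already at 411 to 2177 TPM at 1 DPI. Macrophages are also known to make Spp1. The macrophage sums given above were 543 to 6314 TPM at 1 DPI, and their part in the Spp1 values was not tested. Hmga1b had the largest fitted change, 10.33, but its SE was 1.37, its libraries held 2711, 683 and 2612 TPM at 3 DPI, and 98.5% of its sequence matched other transcripts, so reads of Hmga1 may count towards it. Among the losses were Erfe, the iron hormone erythroferrone (0.82 to 5.34 TPM at 3 DPI, 478 to 682 TPM in QSC), and Arl4d, a small GTPase (3.8 to 4.2 TPM at 3 DPI, 515 to 710 TPM in QSC). S1pr3, a sphingosine 1-phosphate receptor (1.78 to 4.66 TPM at 3 DPI, 252 to 320 TPM in QSC), and Npy, a neuropeptide (0 to 0.753 TPM at 3 DPI, 53.6 to 124 TPM in QSC), were others. Neu2, a sialidase, was listed at 0 in all 3 libraries of 3 DPI and had 46.3 to 152 TPM in QSC. Gfpt2, of the hexosamine pathway, fell by 6.96 on the log2 scale, and the chemokine gene Ccl19 by 6.17, with 88.9% of its sequence matching another transcript.

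The same change was measured in other libraries. In Drp1 KO cells 8165 genes (44.5% of those tested) were called between 3 DPI and QSC. Of the 7937 genes called in control cells, 7842 had the same sign in KO cells, 81 the opposite and 14 no change, and 6601 were also called there with the same sign. The difference between the KO change and the control change passed the test for 5 genes (0.0273%), with 803 at an unadjusted p under 0.05. Dnm1l had a change of -0.38 in KO cells and 0.84 in control cells. It had 28.3 ± 6.82 TPM in KO cells at 3 DPI (SD, n = 4) and 36.7 ± 5.84 TPM in KO QSC (SD, n = 3), and the difference of changes of -1.22 (SE 0.26) did not pass the adjusted threshold (limma, adjusted p = 0.249). Cdkn1c changed by 0.97 in KO cells and 3.17 in control cells, and the difference of -2.20 (SE 0.86) did not pass either (adjusted p = 1). Lists had medians of the same sign in both genotypes for OXPHOS subunits (1.57 in KO, 1.94 in control), mitosis genes (4.15 in KO, 4.72 in control) and TGF-beta and BMP pathway genes (-1.01 in KO, -1.02 in control). In cells of 24-month-old WT mice, from a table normalised separately and fitted on its own, 6526 of 16949 genes (38.5%) were called between 3 DPI and QSC. Of the 7673 control-called genes tested there, 7260 had the same sign and 4833 of these were also called.

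**Figure D5:**
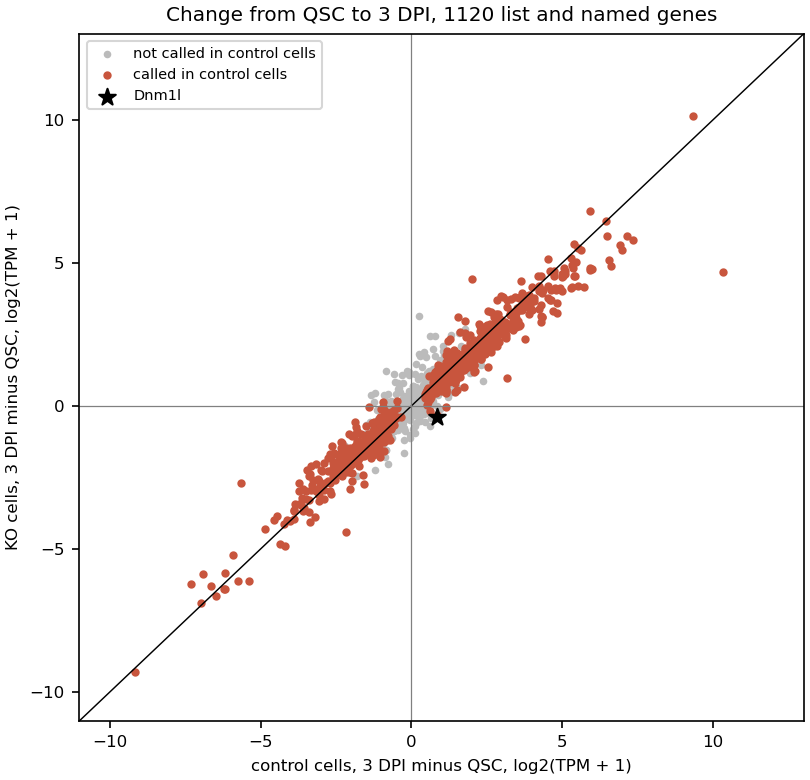
Change from QSC to 3 DPI on the log2(TPM + 1) scale in KO cells (vertical axis) against control cells (horizontal axis) for the genes of the lists and the named genes, with the line of equal change. Red points were called in control cells, grey points were not, and the star marks Dnm1l at 0.84 in control cells and -0.38 in KO cells.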

How the data were processed

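RNA-seq was measured in 36 libraries of sorted satellite cells in 11 groups. The comparison used a deposited TPM table of 21 libraries, and 15 libraries of a second table, normalised separately, gave the old WT values. Per the submitters' processing notes, the authors used CASAVA 1.8.2, cutadapt 1.7.1 and RSEM 1.3.1 with GRCm38, with no aligner named in what was read here. TPM as deposited by the authors keeps no read depth, so depth is unknown and no counting interval is given. The labels' protocols name both a low-input and a standard directional library kit without saying which library had which, so strand cannot be assumed. Each table held 55471 gene IDs, of which 55230 matched a symbol in GENCODE M21.

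The 18343 genes that reached 1 TPM in 3 or more libraries were fitted with limma 3.58.1 (R 4.3.3) on log2(TPM + 1), with 1 mean per group over all 21 libraries, an intensity trend, and Benjamini-Hochberg adjustment over all genes tested. The difference between genotypes was the interaction of that fit. Replicate numbers did not pair the samples. The procedure was tested on simulated data.

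The members and gene lists were chosen with earlier results of these data known. Named genes were a fixed set of myogenic genes and Dnm1l, the 10 largest called changes in each direction whose libraries did not overlap and whose higher mean reached 20 TPM, up to 4 called members of smallest adjusted p per list and direction, and other members as examples. The ranking of largest changes took protein-coding and long non-coding genes and left out symbols of predicted models. Malat1, Chodl, Cd34, the mitochondrial messenger RNAs and the 5 genes that differed between genotypes were named after their values were seen. Sequence shared with other transcripts was measured with BLAST 2.17.0 at 95% identity or more over at least 100 bases. Promoters came from RefSeq on GRCm38.p6. Tables and figures used Python 3.11.15, pandas 2.3.3 and matplotlib 3.10.9. Alternatives covered scaling, pseudocount, filter, samples fitted, array weights, a replicate block, a test against a 2-fold change and leaving out each library.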

Additional observations from a re-analysis of the deposited data

Results flagged for a closer look

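For 5 genes the change from QSC to 3 DPI differed between KO and control cells by a test of that difference (limma interaction, Benjamini-Hochberg adjusted over 18343 genes). Tceanc2, a protein-coding gene related to an elongation factor, had 17 ± 2.41 TPM at 3 DPI (SD, n = 4) and 212 ± 87.8 TPM in QSC (SD, n = 3) in KO cells. In control cells it had 37.9, 38.8 and 16.3 TPM at 3 DPI and 7.4, 6.12 and 5.83 TPM in QSC. Its KO change minus its control change was -5.5 on the log2(TPM + 1) scale (adjusted p = 0.0193).

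The other 4 were short non-coding or pseudogene annotations that were listed at 0 in 1 genotype at both 3 DPI and QSC. Gm24682, a small Cajal body RNA, was listed at 0 at 3 DPI and averaged 19.6 ± 8.32 TPM in QSC in KO cells (SD, n = 3), and was listed at 0 in control cells (difference -4.26, adjusted p = 7.19e-06). Gm5874, a processed pseudogene, was listed at 0 in KO cells and had 21.6, 7.87 and 17.7 TPM at 3 DPI and 0 TPM in QSC in control cells (difference -3.96, adjusted p = 0.000269). Gm2427, an unprocessed pseudogene, averaged 0.436 ± 0.682 TPM at 3 DPI (SD, n = 4) and 8.18 ± 2.63 TPM in QSC (SD, n = 3) in KO cells and was listed at 0 in control cells (difference -2.74, adjusted p = 0.0429). Gm14893, a processed pseudogene, was listed at 0 in KO cells and had 0 TPM at 3 DPI and 3.55, 1.95 and 2.58 TPM in QSC in control cells (difference 1.86, adjusted p = 0.00832). All of the sequence of Gm5874 and Gm2427 matched other transcripts closely, so reads may have been split between copies.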

How the results depend on the processing

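The counts of genes called between 3 DPI and QSC (7937, with 4311 higher and 3626 lower) stayed within 1.5 times under every alternative run except the test against a 2-fold change, which called 2678, with 1678 higher and 1000 lower. Leaving out each library in turn gave 6881 to 7044 called, 3858 to 3952 higher and 2972 to 3186 lower. Median-of-ratios scaling moved the median of all genes by -0.16 and turned the balance to 3744 higher and 4631 lower. Rescaling to nuclear protein-coding genes gave 4009 higher and 4088 lower. The list medians that changed sign under a scaling were all near 0 (chromatin, lysosome, mitochondrial dynamics, myogenic factors, p53 targets and ribosome biogenesis). The replicate block, whose pairing was not borne out by the samples (correlations of same-numbered deviations of -0.0601, -0.0459 and 0.0622), gave 7809 called. The 5 genes that differed between genotypes became 3 with a pseudocount of 0.1, 12 with no filter on low values, 3 with a filter at 5 TPM, 11 with array weights, 2 with the test against a 2-fold change, and 2 to 7 when a library was left out, with 2 without any 1 of the control QSC libraries and 3 without control 3 DPI replicate 1 or 2 or KO QSC replicate 3. The cause was not tested. Depth is unknown from TPM, so it cannot be said how much of the spread of low genes was counting error.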
